A study of Homo sapiens with 6 samples.

Results

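The enzyme genes described here are the 9 listed for asparagine, glutamate and proline metabolism: ASNS, GPT2, GOT1, GOT2, GLUD1, PYCR1, ALDH18A1, BCAT1 and BCAT2. They were matched by symbol, and all 9 were found once each among the 57500 genes of the count files. All 9 also passed the filter on low counts, which left 19255 genes to test. RNA-seq counts were compared between liver-derived (LV) and control, wild-type (WT) cells of 22Rv1, an established line of human prostate cancer cells, all grown in RPMI-1640 with fetal bovine serum. The LV group held 3 libraries of cells labelled as derived from a liver metastasis, and the WT group held 3 libraries labelled as control. The labels call the libraries biological replicates, give no treatment for either group, and do not say in which host the metastasis grew, how many separate derivations the 3 LV libraries represent, or whether the 3 libraries of a group came from separate cultures. The p-values therefore measure the spread between these libraries, which may be technical.

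These enzymes move nitrogen between glutamine, glutamate and the amino acids made from it. Asparagine synthetase (ASNS) passes the amide nitrogen of glutamine to aspartate. Alanine aminotransferase (GPT2 in mitochondria, GPT in the cytosol), aspartate aminotransferase (GOT1 in the cytosol, GOT2 in mitochondria) and the branched-chain aminotransferases (BCAT1 in the cytosol, BCAT2 in mitochondria) exchange amino groups with glutamate, and glutamate dehydrogenase (GLUD1) releases ammonia from it. ALDH18A1 and PYCR1 catalyse the opening and closing steps of proline synthesis from glutamate. Among them, ASNS is a textbook target of ATF4, the transcription factor of the amino acid response, which binds composite C/EBP-ATF sites.

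ASNS and GPT2 were 2.40- and 2.43-fold higher in LV cells, BCAT1 was 1.85-fold higher at a low level, and BCAT2 was 2.16-fold lower; no change passed the test for GOT1, GOT2, GLUD1, PYCR1 and ALDH18A1. With an adjusted p under 0.05 in edgeR's quasi-likelihood test, 3 of 9 genes rose and 1 fell. Over all genes tested 17.5% rose, 21.3% fell and 38.8% were called in either direction, so the share of the 9 genes called, 44.4%, was near that of all genes. Groups did not overlap in 8 of the 9 genes, against 54.0% of all genes tested. With all 6 libraries, a call with at least a 2-fold change was made for ASNS, GPT2 and BCAT2, against 13.8% of all genes. The median log2 fold change was 0.17 over the 9 genes and -0.0075 over all genes tested.

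Libraries held 28395265 to 53275252 counts in the LV group and 46031158 to 50934457 in the WT group. WT replicate 2 stood apart from the other WT libraries: a chi-square test of counts gave 55.3 and 61.8 per degree of freedom against WT replicates 1 and 3, compared with 2.24 between those and 2.45 to 3.15 between LV libraries. For the enzyme genes, calls that depend on WT replicate 2 and the fold changes of the called genes are given with and without it. Both groups expressed prostate genes; FOXA1 was at 377 CPM in LV and 413 CPM in WT cells, where CPM is the library-scaled read count after TMM normalisation. Of 10 prostate markers, 3 rose in LV cells (log2 fold changes 0.18 to 0.80), 6 fell (-3.18 to -0.74) and FOXA1 did not pass. The largest fall was in KLK2, a kallikrein protease, at 13.6 CPM in LV and 124 CPM in WT cells; FOLH1, which encodes prostate-specific membrane antigen, was at 168 CPM in LV and 557 CPM in WT cells. Summed over 18 hepatocyte markers, LV libraries held 69.6 to 73.1 CPM and WT libraries 54.5 to 65.0 CPM, most of it ALB, at 65.8 CPM in LV and 47.7 CPM in WT cells. Of these markers 6 passed the filter, with 4 higher and 2 lower in LV cells; FGA had no read in any library, and TTR, AHSG, HP and FGB stayed under 0.2 CPM in both group means. Summed over 15 stromal, endothelial and leukocyte markers, LV libraries held 24.1 to 26.4 CPM and WT libraries 25.0 to 29.3 CPM, with CDH5, CD3E and MS4A1 at 0 in all. Most of this sum was COL1A1, at 18.3 CPM in LV and 17.5 CPM in WT cells. Here 9 markers passed the filter, with 0 higher and 2 lower in LV cells. The 2 were LUM, at 0.0674 CPM in LV and 1.75 CPM in WT cells, and COL3A1, at 0.790 CPM in LV and 1.66 CPM in WT cells. Mitochondrial reads made up 1.68 to 1.72% of LV and 1.19 to 1.38% of WT counts. The part of other cells and of RNA handling in the results was not tested. In bulk RNA, fewer cells expressing a gene and less RNA per cell cannot be told apart.

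ASNS (ENSG00000070669; chromosome 7, 97852118 to 97872542, GRCh38, minus strand, protein coding) had 392, 396 and 388 CPM in LV replicates 1 to 3, against 175, 143 and 173 CPM in WT replicates 1 to 3. Every LV library was above every WT library, and WT replicate 2 was the lowest. The means were 392 ± 3.94 CPM in LV and 164 ± 17.9 CPM in WT cells (SD, n = 3 each), 2.40-fold higher in LV (log2 fold change 1.26, SE 0.087, edgeR adjusted p = 6.56e-06). These values rest on 11060 to 20450 reads per LV library and 6483 to 9125 per WT library. The ASNS pseudogenes held at most 6 reads in any library, and no gene with exons overlapping those of ASNS was found. ASPG, an asparaginase, which breaks asparagine down to aspartate, was too low to test, at 0.0989 CPM in LV and 0.300 CPM in WT cells. ASRGL1, another asparaginase, had 46.5 ± 3.06 CPM in LV and 52.0 ± 2.57 CPM in WT cells (log2 fold change -0.16, edgeR adjusted p = 0.143).

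Promoter sequence was searched because ASNS is the classic example of an amino acid response element. The 250 bases before each RefSeq gene start (GRCh38.p14) were available for 6 of the 9 genes: ASNS, GOT1, GOT2, GLUD1, ALDH18A1 and BCAT1. The letters searched, on both strands, were TGATGNAA for the C/EBP-ATF composite site and CACGTG for the E-box; matches of both kinds were counted even where they overlap. Each match is shown as 30 bases, written 5′ to 3′ on the gene's strand, with the match in capitals.
ASNS: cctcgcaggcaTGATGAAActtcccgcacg
BCAT1: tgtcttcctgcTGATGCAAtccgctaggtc
GOT1: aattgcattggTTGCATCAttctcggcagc
ALDH18A1: gggctggcccgcCACGTGgagcgctggctt
The ASNS stretch lies at chr7:97872458-97872487 (minus strand), with the match beginning 68 bases before 1 of the 2 listed starts. The BCAT1 stretch lies at chr12:24949131-24949160 (minus strand), with the match 48 bases before 1 of the 5 listed starts; the other starts had none. The GOT1 stretch lies at chr10:99430804-99430833 (minus strand) and carries the site on the opposite strand, 198 bases before the start. The ALDH18A1 stretch lies at chr10:95656830-95656859 (minus strand), 136 bases before the start. TGATGNAA was thus present for 3 of 6 genes, of which ASNS and BCAT1 rose and GOT1 did not pass, against 2.44% of the 11988 tested genes with a promoter in the table. Because ASNS prompted the search, its match was fixed in advance, and the count of 3 is not independent evidence about these genes. CACGTG was present for 1 of 6, against 10.9%. A match in these windows is a description of the letters and says nothing of binding.

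GPT2 (ENSG00000166123; chromosome 16, 46884378 to 46931297, plus strand), the mitochondrial alanine aminotransferase that makes alanine and alpha-ketoglutarate from pyruvate and glutamate, had 274, 274 and 266 CPM in LV libraries, against 108, 125 and 103 CPM in WT libraries. The groups did not overlap, and the lowest LV value was more than 2 times the highest WT value. The means were 272 ± 4.58 CPM in LV and 112 ± 11.4 CPM in WT cells, 2.43-fold higher in LV (log2 fold change 1.28, SE 0.084, edgeR adjusted p = 4.55e-06). Its cytosolic counterpart GPT, a member of the list of glutamine and glutamate genes, was lower in LV cells, with 4.33, 3.69 and 4.53 CPM in LV libraries, against 47.1, 58.8 and 44.1 CPM in WT libraries (log2 fold change -3.56, SE 0.14, edgeR adjusted p = 2.05e-07). GPT shares exon bases with AC084125.2 on the opposite strand, which held 130 to 225 reads in LV and 532 to 619 in WT libraries; the strand setting of the counting is not known.

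Per length, the makeup of alanine aminotransferase RNA differed between the groups. GPT2 supplied 96.2 to 97.0% of the summed TPM, the length-scaled abundance, of GPT2 and GPT in LV libraries, and 47.9 to 50.2% in WT libraries. The sum was 155 ± 2.79 TPM in LV and 129 ± 10.9 TPM in WT cells (SD, n = 3 each), a much smaller difference than in either gene.

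**Figure D1:**
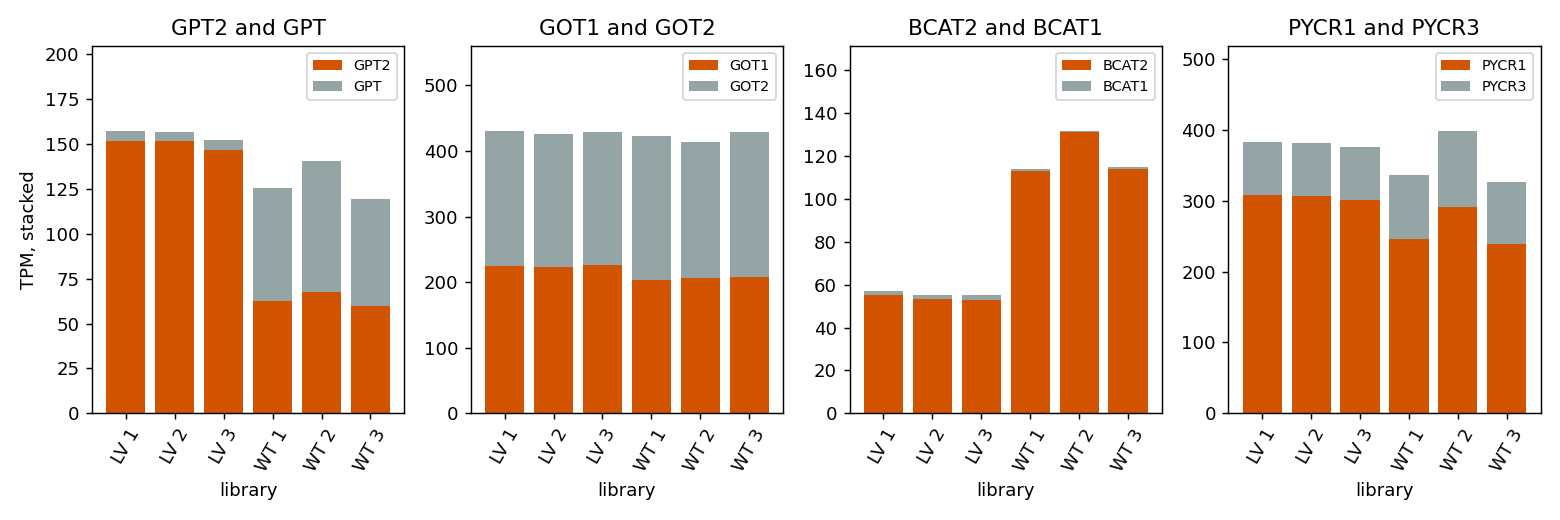
Stacked TPM of paired enzyme genes in each library (x axis: 3 LV, then 3 WT libraries; y axis: TPM from 0, with its own scale in each panel). GPT2 makes up 96.2 to 97.0% of its pair in LV and 47.9 to 50.2% in WT libraries, whereas GOT1 and GOT2 stay near even and BCAT2 makes up nearly all of its pair in both groups.

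No change passed the test for either aspartate aminotransferase gene. GOT1 (ENSG00000120053; chromosome 10, 99396870 to 99430624, minus strand) had 154, 154 and 157 CPM in LV libraries, against 134, 145 and 135 CPM in WT libraries. All LV values were above all WT values, but the log2 fold change of 0.17 (SE 0.067) did not pass (edgeR adjusted p = 0.0778). GOT2 (ENSG00000125166; chromosome 16, 58707131 to 58734357, minus strand) had 221, 216 and 219 CPM in LV libraries, against 224, 227 and 224 CPM in WT libraries. The LV values lay just under the WT values, with a log2 fold change of -0.041 (SE 0.060, edgeR adjusted p = 0.625). GOT1 supplied 52.0 to 52.7% of the summed TPM of GOT1 and GOT2 in LV libraries and 48.1 to 49.9% in WT libraries.

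GLUD1 (ENSG00000148672; chromosome 10, 87050486 to 87094866, minus strand), which converts glutamate to alpha-ketoglutarate in mitochondria, had 302, 308 and 318 CPM in LV libraries, against 295, 272 and 308 CPM in WT libraries. It was the single gene of the 9 whose groups overlapped (log2 fold change 0.085, SE 0.070, edgeR adjusted p = 0.377). Its near-identical retrocopy GLUD2 held 76 to 163 reads in LV and 120 to 134 in WT libraries, few beside the 8593 to 16251 reads assigned to GLUD1, and how reads were divided between them is not known. GLUD1 also shares 464 exon bases with FAM35A on the opposite strand, which held 1278 to 2330 reads in LV and 1290 to 2491 in WT libraries.

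For proline synthesis, PYCR1 and ALDH18A1 had slightly higher values in LV cells that did not pass edgeR's test as fitted here; PYCR1 lay near the threshold and passed in some other fits of the same 6 libraries. PYCR1 (ENSG00000183010; chromosome 17, 81932384 to 81942412, minus strand), the mitochondrial pyrroline-5-carboxylate reductase, had 253, 252 and 249 CPM in LV libraries, against 193, 245 and 186 CPM in WT libraries. WT replicate 2 lay close to the LV values and the other WT libraries well under them. The means were 251 ± 2.01 CPM in LV and 208 ± 32.0 CPM in WT cells (log2 fold change 0.28, SE 0.10, edgeR adjusted p = 0.0635). With all 6 libraries it passed under edgeR without the filter (adjusted p = 0.0108), DESeq2 (adjusted p = 0.0298), edgeR with the replicate block (adjusted p = 0.0442) and limma-voom (adjusted p = 0.0495). ALDH18A1 (ENSG00000059573; chromosome 10, 95605929 to 95656706, minus strand), which opens the pathway from glutamate, had 207, 204 and 203 CPM in LV libraries, against 182, 198 and 184 CPM in WT libraries (log2 fold change 0.13, SE 0.065, edgeR adjusted p = 0.161). Here too WT replicate 2 was the highest of its group.

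Without WT replicate 2, 6 of the 9 genes rose and 1 fell in edgeR's test. Calls increased over all genes as well: 5714 rose and 6156 fell, against 3375 and 4101 with all 6 libraries. The 38.8% of all genes called with all 6 libraries is therefore not the base share for this fit, which is not given here. The same holds for the list counts without WT replicate 2 further on. The added genes were PYCR1 (log2 fold change 0.41, edgeR adjusted p = 5.29e-17), GOT1 (0.20, adjusted p = 8.96e-09) and ALDH18A1 (0.16, adjusted p = 1.68e-07). PYCR1 passed in 5 of 14 alternative fits (adjusted p from 5.29e-17 to 0.184), and GOT1 and ALDH18A1 in 1 each (adjusted p up to 0.239 for GOT1 and 0.422 for ALDH18A1). The fold changes of PYCR1, GOT1 and ALDH18A1 were positive in all 14. For genes already called, leaving out WT replicate 2 gave log2 fold changes of 1.17 for ASNS, 1.37 for GPT2 and 0.76 for BCAT1. BCAT2 was at -0.998 in that fit, just under a 2-fold change. ASNS, GPT2, BCAT1 and BCAT2 kept their calls in all 14 fits.

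PYCR3, a cytosolic paralog of PYCR1, had 68.9 ± 0.294 CPM in LV and 85.7 ± 14.3 CPM in WT cells (log2 fold change -0.31, edgeR adjusted p = 0.0522). PYCR1 supplied 80.3 to 80.5% of the summed TPM of PYCR1 and PYCR3 in LV libraries and 72.9 to 73.3% in WT libraries.

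The branched-chain aminotransferases, which start the breakdown of leucine, isoleucine and valine, moved in opposite directions. BCAT2 (ENSG00000105552; chromosome 19, 48795062 to 48811029, minus strand) had 71.4, 69.2 and 69.1 CPM in LV libraries, against 140, 174 and 140 CPM in WT libraries. The groups were far apart, with WT replicate 2 the highest. The means were 69.9 ± 1.28 CPM in LV and 151 ± 19.7 CPM in WT cells, 2.16-fold lower in LV (log2 fold change -1.11, SE 0.097, edgeR adjusted p = 2.66e-05).

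BCAT1 (ENSG00000060982; chromosome 12, 24810022 to 24949459, minus strand) had 5.59, 4.87 and 6.86 CPM in LV libraries, against 3.25, 2.47 and 3.66 CPM in WT libraries. The groups did not overlap, but the counts were low, at 136 to 333 reads in LV and 112 to 193 in WT libraries. The level was 1.85-fold higher in LV (log2 fold change 0.89, SE 0.17, edgeR adjusted p = 0.00337). The sum of both genes was 55.6 ± 1.05 TPM in LV and 120 ± 9.93 TPM in WT cells, and BCAT2 supplied 96.3 to 97.4% of it in LV and 99.0 to 99.5% in WT libraries.

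**Figure D2:**
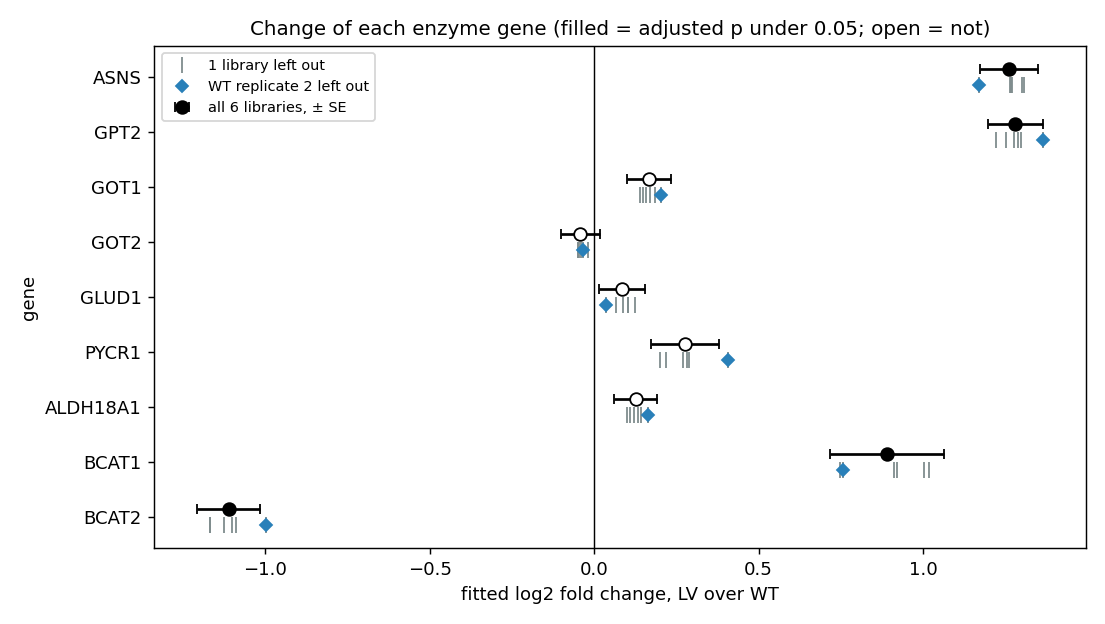
Fitted log2 fold change (x axis, LV over WT) of each enzyme gene with all 6 libraries (circle ± SE), and with 1 library left out (ticks; diamond: without WT replicate 2). ASNS, GPT2 and BCAT1 lie above 0 and BCAT2 below 0 in every fit shown, while PYCR1 shifts to 0.41 without WT replicate 2.

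Per length, ASNS stood in place 1 of the 9 genes in LV cells and in place 6 in WT cells. In LV cells ASNS (309 ± 4.21 TPM), GLUD1 (309 ± 7.14 TPM) and PYCR1 (306 ± 3.60 TPM) did not differ beyond their spread, and GOT1 (225 TPM), GOT2 (204 TPM), ALDH18A1 (191 TPM), GPT2 (150 TPM), BCAT2 (53.9 TPM) and BCAT1 (1.72 TPM) followed, each apart from the next. In WT cells the order was GLUD1 (300 ± 30.9 TPM), PYCR1 (259 ± 27.9 TPM), GOT2 (216 ± 7.68 TPM), GOT1 (206 ± 2.03 TPM), ALDH18A1 (180 TPM), ASNS (133 ± 19.8 TPM), BCAT2 (119 ± 10.1 TPM), GPT2 (63.4 TPM) and BCAT1 (0.965 TPM). There, the ranges of GLUD1 and PYCR1, of GOT2 and GOT1, and of ASNS and BCAT2 overlapped, in each pair only through WT replicate 2. In WT replicates 1 and 3, GLUD1 had 309 and 326 TPM and PYCR1 246 and 240 TPM. GOT2 had 219 and 221 TPM there and GOT1 203 and 207 TPM, while ASNS had 145 and 144 TPM and BCAT2 113 and 114 TPM.

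**Figure D3:**
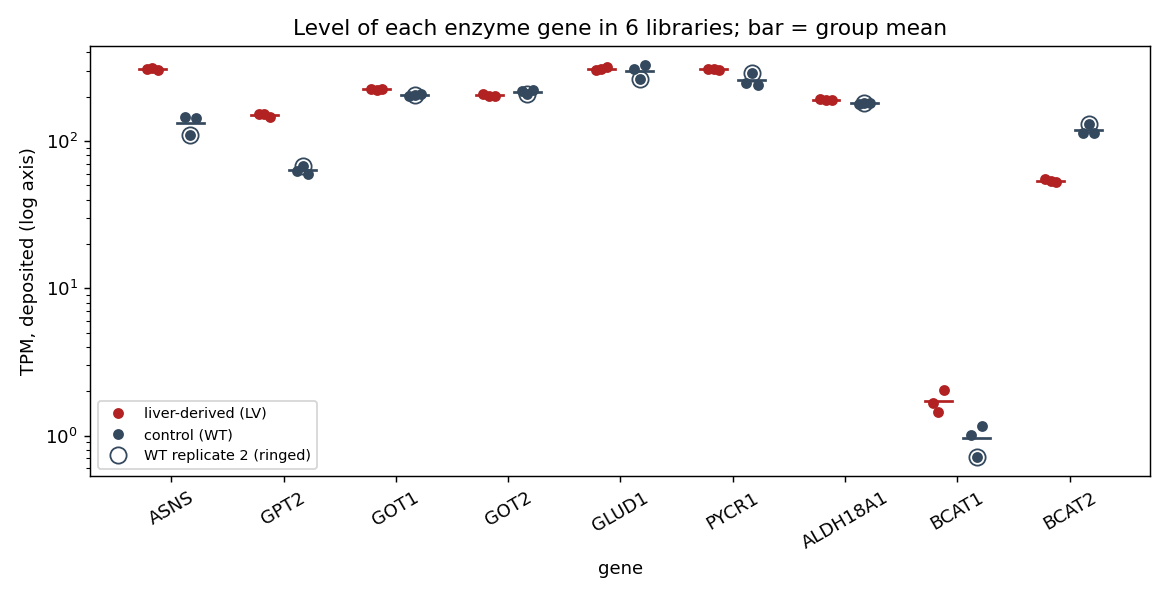
Deposited TPM (y axis, log scale) of the 9 enzyme genes in each library, LV left of WT for each gene, with a bar at the group mean and WT replicate 2 ringed. ASNS, GPT2 and BCAT1 sit higher in LV, BCAT2 lower, and GLUD1 overlaps between the groups.

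On the log2(TPM + 1) scale, limma called 5 of the 9 genes higher and 1 lower in LV cells, against 37.5% of 17453 genes called in either direction. ASNS differed by 1.22, GPT2 by 1.23 and BCAT2 by -1.13 on that scale. GOT1 (0.13, limma adjusted p = 0.0375) and PYCR1 (0.24, limma adjusted p = 0.0464) passed there and not in the count test. The TPM are the counts rescaled by gene length and library, so this is a second scale and not a second measurement.

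Genes near the 4 changed enzymes on the chromosome were counted next, beside the 17.5% of all genes tested that rose and the 21.3% that fell. An effect of position was not tested. Within 1 Mb of ASNS, 10 other genes were tested, of which 3 rose and 1 fell (median log2 fold change 0.21). Within 1 Mb of GPT2, 4 of 12 rose and 0 fell (median 0.074; edgeR adjusted p under 0.05). Around BCAT2, 10 of 83 rose and 28 fell (median -0.043), and around BCAT1, 0 of 7 were called (median 0.27).

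Among genes next to the 9 in metabolism, those handling glutamine and glutamate moved both ways. Of 18 tested in that list, 6 rose, 4 fell and 8 did not pass (median log2 fold change 0.11). The share called was 55.6%, against 38.8% of all genes tested. Besides GPT, the largest were GAD1, which decarboxylates glutamate to GABA, at 4.22 ± 0.190 CPM in LV and 1.83 ± 0.201 CPM in WT cells (log2 fold change 1.21), and GFPT2, an enzyme of hexosamine synthesis, at 1.24 ± 0.385 and 2.59 ± 0.426 CPM in LV and WT cells (-1.12). GFPT1, its paralog, named after its values were seen, had 221 ± 1.11 CPM in LV and 110 ± 15.5 CPM in WT cells (edgeR adjusted p = 7.09e-05).

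Of 9 tested aspartate and asparagine genes, 3 rose, 1 fell and 5 did not pass (median 0.21). The share called, 44.4%, was near the 38.8% of all genes tested. ASS1, argininosuccinate synthase, had 8.33 ± 0.690 CPM in LV and 5.08 ± 0.314 CPM in WT cells (log2 fold change 0.71). ADSS2, an enzyme of purine synthesis that uses aspartate, rose by 0.54, and NAT8L, which makes N-acetylaspartate, was lower (-0.59). Without WT replicate 2, 5 of the list rose and 2 fell, and 2 fell also without LV replicate 2 or without WT replicate 3.

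Of 9 tested proline and ornithine genes, 1 rose, 2 fell and 6 did not pass (median -0.095). That is 33.3% called, near the 38.8% of all genes tested. ARG1, named because it alone rose, had 0.379 CPM in LV and 0.0732 CPM in WT cells, under 1 CPM in both. ODC1 had 434 ± 11.8 CPM in LV and 504 ± 9.33 CPM in WT cells (-0.22), and AZIN1 179 ± 1.54 CPM in LV and 233 ± 45.2 CPM in WT cells (-0.38). Both act in polyamine synthesis. The number that fell was 0 when any 1 LV library was left out, 1 without WT replicate 1 and 4 without WT replicate 2, where 3 rose.

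Genes of branched-chain amino acid breakdown past the aminotransferase step numbered 3 that rose, 6 that fell and 12 that did not pass among 21 (median -0.13). Their share called was 42.9%, near the 38.8% of all genes tested. PPM1K, the phosphatase that activates the branched-chain ketoacid dehydrogenase, had 5.31 ± 0.175 CPM in LV and 18.6 ± 3.40 CPM in WT cells (log2 fold change -1.81). BCKDK, the kinase that inactivates the same complex, was lower too (-0.47), as was ECHS1, an enoyl-CoA hydratase (-0.53). Without WT replicate 2, 11 of the list fell, and 1 rose without LV replicate 1 or without LV replicate 3.

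Of 16 genes of the malate-aspartate shuttle and entry into the TCA cycle, 1 rose, 4 fell and 11 did not pass (median -0.10). Calls made up 31.2%, against 38.8% of all genes tested. ME1, the cytosolic malic enzyme, had 24.7 to 26.7 CPM in LV and 6.79 to 8.71 CPM in WT libraries (log2 fold change 1.69). OGDHL, a paralog of a subunit of the alpha-ketoglutarate dehydrogenase, had 1.69 ± 0.228 CPM in LV and 23.9 ± 3.46 CPM in WT cells (-3.82), and IDH2, the mitochondrial isocitrate dehydrogenase, was lower as well (-0.81). Without WT replicate 2, 5 of the list rose, and without WT replicate 1 or 3, 2 did.

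The list of ATF4 and the amino acid response, to which ASNS would belong, moved mostly one way. Of 35 genes tested, 31 rose, 1 fell and 3 did not pass, with a median log2 fold change of 0.60. In all 91.4% were called, against 38.8% of all genes tested. The list was written with earlier results of these data known, so its direction is not independent evidence. ATF4 itself had 642, 644 and 646 CPM in LV libraries, against 460, 523 and 446 CPM in WT libraries (log2 fold change 0.43, SE 0.075, edgeR adjusted p = 0.00169). The largest changes were in SLC7A5 and SLC3A2, which encode both chains of the LAT1 amino acid transporter, and in DDIT4, an inhibitor of mTORC1. SLC7A5 had 8495 ± 110 CPM in LV and 263 ± 28.4 CPM in WT cells (5.01), SLC3A2 had 2616 ± 50.1 and 175 ± 15.5 CPM in LV and WT cells (3.90), and DDIT4 rose by 2.51. The gene that fell was ATF5 (-0.97), an ATF4 relative whose exons overlap NUP62 on the opposite strand. Values for ASNS (1.26) and GPT2 (1.28) lay above that list's median, and those for PYCR1 (0.28) and ALDH18A1 (0.13) below it.

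**Figure D4:**
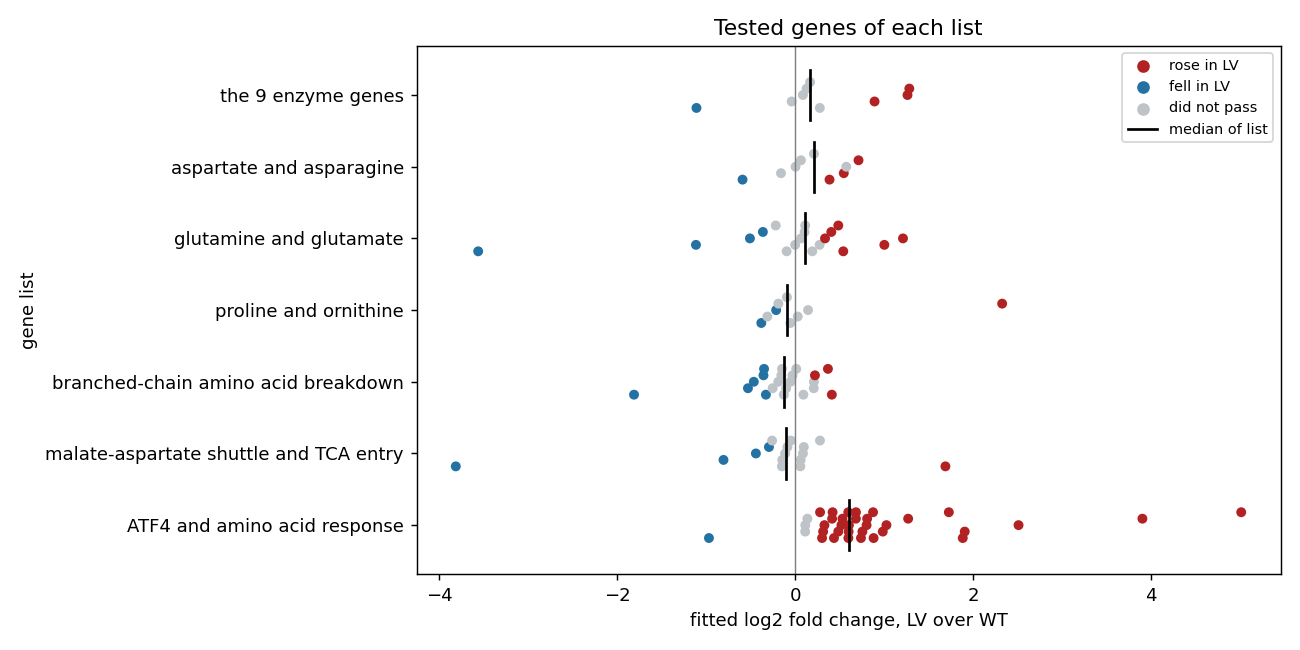
Fitted log2 fold change (x axis, LV over WT) of each tested gene in 7 lists (rows), coloured by call (edgeR adjusted p under 0.05), with a black line at each list's median. The median is 0.60 for the ATF4 list and between -0.13 and 0.21 for the other lists, with GPT (-3.56) and OGDHL (-3.82) far to the left.

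The genes whose pattern over the 6 libraries was most like GPT2 and BCAT2, the genes with the largest rise and the largest fall, were found among 9732 protein-coding genes with a mean of at least 10 CPM. Likeness was the root-mean-square difference of log2 CPM after centring each gene on its own mean. Closest to GPT2 were ARHGEF2 (0.030), SH3PXD2A (0.038), EPHA2 (0.043), RHPN2 (0.044) and TRIB3 (0.045), with log2 fold changes of 1.24 to 1.34. Closest to BCAT2 were C19orf48 (0.016), ENO2 (0.026), NLGN2 (0.030), PACSIN1 (0.032) and CCDC74A (0.032), with log2 fold changes of -1.13 to -1.07. These rankings rest on 6 libraries in 2 groups.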

How the data were processed

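PolyA-selected RNA from 3 LV and 3 WT libraries was sequenced as paired reads, per the labels' protocols. The submitters' processing notes name Trimmomatic 0.36, STAR 2.5.2b, Subread 1.5.2 with its featureCounts program, and the build GRCh38. The strand setting and annotation release used were not given there. The authors deposited raw counts per gene and library, and a table of TPM, which counts and gene lengths gave again within a relative difference of 4.82e-05. In the TPM table, rows without a gene were left out.

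Counts were fitted with edgeR 4.0.16 (R 4.3.3) by filterByExpr, TMM and robust quasi-likelihood, with the group as the only term, and p-values were adjusted by Benjamini-Hochberg over all genes tested. SE was derived from edgeR's test, as the absolute fitted log2 fold change divided by the square root of the F statistic. TPM of at least 1 in 3 libraries were tested on log2(TPM + 1) with limma 3.58.1. Promoters came from RefSeq. Libraries of a group differed by more than sampling noise. The steps were tested on simulated data with less spread between libraries than here and no outlying library. That test cannot show how the calls behave with a library like WT replicate 2. Alternatives were DESeq2 1.42.0 and limma-voom, other scalings and filters, leaving out single libraries, and the replicate number as a block.

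The named genes were the 9 enzymes, the called genes of each list that changed most (up to 3, at 1 CPM or more), and the 5 closest profiles. The enzymes, lists and tests were chosen with earlier results of these data known.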

Additional observations from a re-analysis of the deposited data

How the results depend on the processing

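Over 14 alternative fits of the counts, 119 of 126 values of the 9 genes kept their direction and call, and no direction turned; the others were passes of PYCR1 in 5 fits, 4 of them with all 6 libraries, and of GOT1 and ALDH18A1 in 1 each, without WT replicate 2. Of the values of other named genes, 227 of 238 kept both, and AZIN1 and ODC1 lost their call in 6 and 5 fits. With each library left out in turn, 2432 to 5714 genes rose and 3168 to 6156 fell, and 3 to 6 of the 9 enzyme genes rose, the highest counts being without WT replicate 2. In the same fits, 2 to 5 aspartate and asparagine genes rose and 1 to 2 fell, 1 to 3 proline and ornithine genes rose and 0 to 4 fell, 1 to 3 branched-chain breakdown genes rose and 6 to 11 fell, and 1 to 5 shuttle and TCA genes rose. Scaling by library size only gave 2 falls among aspartate and asparagine genes, as did no filter, and 4 among proline and ornithine genes, where limma-voom gave 1. A minimum of 1 CPM left 0 proline and ornithine genes that rose. Under RLE size factors, no filter, DESeq2 and limma-voom, 2 shuttle and TCA genes rose. Without a filter on TPM, limma called 3 of the 9 genes higher. Replicate numbers are shared between the groups. Deviations from the group mean correlated at -0.030, -0.0082 and 0.083 between same-numbered libraries, and at -0.0612 to 0.0585 between the others. With 3 libraries per group these values cannot tell whether a number marks a shared batch, and the labels do not say. With the replicate block 3169 genes rose and 3883 fell. In that fit 4 of the 9 genes rose, PYCR1 added (adjusted p = 0.0442, edgeR), and 2 shuttle and TCA genes rose. The causes of these shifts were not tested. Depth limits BCAT1, at 112 to 333 reads.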
